A study of Danio rerio with 20 samples.

Results

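The CpGs described here are 7 neighbouring sites on zebrafish chromosome 19, near 27.02 Mb on the genome build GRCz11, that span 387 bp. Every CpG in this window was kept that was covered by 10 reads or more in 4 or all of the 5 samples of every group, and these 7 were among 135 such CpGs in 8 regions of the series. The window held 14 listed positions, and the other 7 had at most 8 reads in any sample, with no methylated read among 48. The 5 inner CpGs lie at positions 27019279, 27019282, 27019461, 27019544 and 27019548. The first CpG lies 81 bp before 27019279 and the last lies 36 bp after 27019548.

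The samples were gonads of laboratory-reared AB zebrafish, 90 days old, and their DNA was treated with bisulfite, which turns unmethylated cytosines into bases read as thymine, before selected regions were sequenced. There were 5 samples in each of 4 groups. Fish of the 3H LPS and 6H LPS groups had received lipopolysaccharide (LPS) of Pseudomonas aeruginosa as larvae, and those of the 3H control and 6H control groups had not. The labels do not say what 3H and 6H stand for, which sex the fish had, or whether samples came from separate fish. The p-values below therefore measure only the variation among these samples, which may be technical. The sources used here name no gene for the window and the build's sequence was not used, so no gene, exon or DNA sequence is given. The tables hold no expression values, and the tissue was not checked against marker genes.

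In vertebrates most CpGs of the genome carry a methyl group on the cytosine, placed by DNA methyltransferases and copied after replication, while CpG-rich promoters are often free of it. Methylation of promoters is generally associated with low transcription. A gonad holds germ cells and several kinds of somatic cells, and the percent of methylated reads is an average over them. In such bulk samples, a change in the share of a cell type cannot be told apart from a change in methylation within cells.

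Each library held between 419055 and 2046055 methylation calls in all. At the 7 CpGs, 18 of the 20 libraries had a median of 1227 to 20307 reads per CpG. The other 2 libraries, 3H LPS replicate 5 with 487 and 6H control replicate 5 with 266 reads, were the shallowest here, although they held 1443230 and 2046055 calls in total. They also stood apart in their methylation values, so results that rest on them are given with and without them. The choice to leave out both was made after their values were seen. Means are given ± SD, over 5 samples per group unless another n is named.

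By their reads, the region combined 6 mostly methylated CpGs with 1 nearly unmethylated CpG. The last CpG had the highest level, 95.3% ± 0.552 over the 20 samples, and was the highest of the 7 in 20 of 20. The CpGs at 27019544 and 27019548, 4 bp apart, had 89.3% ± 1.58 and 89.3% ± 2.25 over the same samples. Their order changed from sample to sample, 27019544 being the higher in 7 of 20, with a mean difference of 0.0605 ± 1.76 percentage points. The first CpG had 86.5% ± 1.98 and lay below 27019548 in 19 of 20 samples. It lay above 27019279 in 16 of 20, where the mean was 83.9% ± 3.51. The CpG at 27019461 was the lowest of the 6, with 75.0% ± 3.42, and held this place in 20 of 20 samples.

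The exception was 27019282, only 3 bp from 27019279. It was the lowest of the 7 in 20 of 20 samples, with a median of 0.415%, where 27019279 had a median of 85.1%. Read numbers hardly differed along the window. The CpG at 27019548 had the fewest reads in 20 of 20 libraries, from 97.8% to 98.6% of those at the first CpG.

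**Figure D1:**
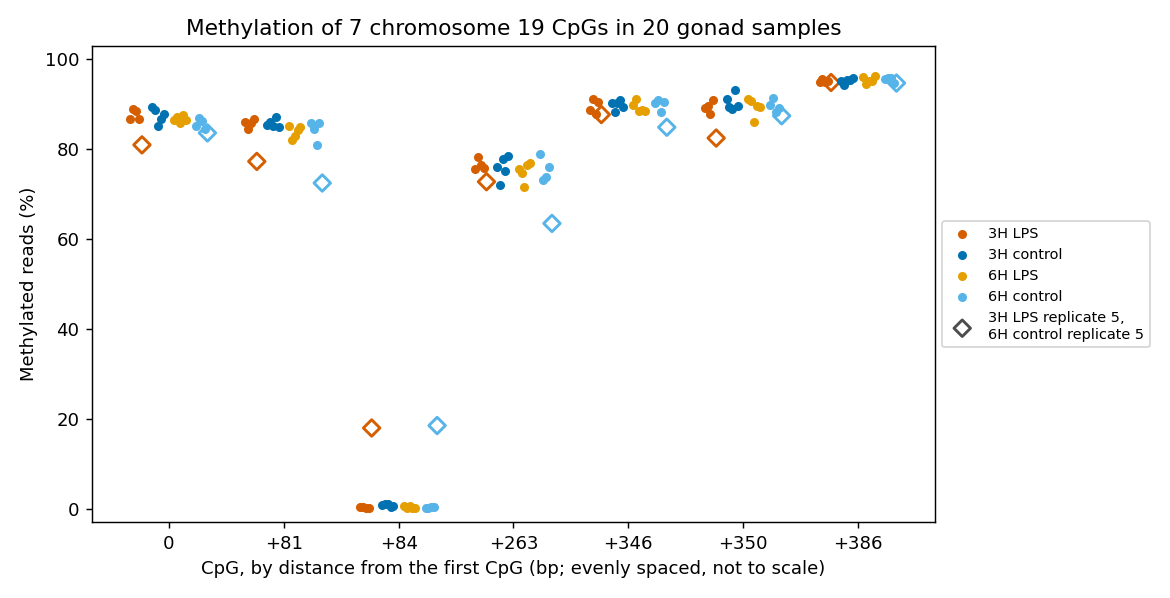
Percent of methylated reads (vertical axis) at the 7 CpGs, given by their distance in bp from the first CpG and evenly spaced (horizontal axis). Each point is 1 sample, coloured by group, and diamonds mark 3H LPS replicate 5 and 6H control replicate 5. The CpG at 84 bp lies near 0% in 18 samples and at 18.0% and 18.5% in the 2 marked ones, which are also the lowest samples at the first and second CpG.

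At 27019282, the percent methylated was 0.292, 0.442, 0.227, 0.177 and 18.0% in 3H LPS samples 1 to 5, against 0.789, 0.978, 1.07, 0.487 and 0.550% in 3H controls. In the 6H set it was 0.507, 0.0796, 0.568, 0.189 and 0.265% in 6H LPS samples, against 0.196, 0.113, 0.388, 0.302 and 18.5% in 6H controls. The values fell on 2 levels. The lower one held 18 samples, from 0.0796% to 1.07%, and the upper one held 3H LPS replicate 5 at 18.0% and 6H control replicate 5 at 18.5%. These came from 87 methylated of 484 reads, with a 95% Wilson interval from 14.8% to 21.6%, and from 50 of 270 reads, with an interval from 14.3% to 23.6%. Such intervals cover counting error only, since PCR copies of 1 molecule are not independent. The upper level was thus reached by 1 of 5 LPS samples and no control in the 3H set, and by no LPS sample and 1 of 5 controls in the 6H set. No conversion control was used here, so levels near 0% may include unconverted and misread bases. Whether a sequence variant at 27019282 plays a part in its reads was not tested.

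The same 2 libraries were low at the neighbouring methylated CpGs. At 27019279, the percent methylated was 86.0, 84.6, 86.0, 86.8 and 77.3% in 3H LPS samples 1 to 5, against 85.5, 86.0, 85.2, 87.1 and 84.9% in 3H controls. It was 85.3, 82.0, 83.0, 84.4 and 85.0% in 6H LPS samples, against 85.8, 84.5, 81.0, 85.8 and 72.5% in 6H controls. The 2 libraries, at 77.3% and 72.5%, were below all other samples, of which the lowest had 81.0%. Their 95% Wilson intervals ran from 73.4% to 80.8% and from 66.9% to 77.5%.

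The first CpG of the window placed them lowest as well. It had 86.7, 89.0, 88.6, 86.6 and 81.0% in 3H LPS samples 1 to 5, against 89.4, 88.7, 85.3, 86.7 and 87.9% in 3H controls. It had 86.6, 87.2, 85.8, 87.6 and 86.5% in 6H LPS samples, against 85.3, 87.0, 86.3, 84.4 and 83.6% in 6H controls. The Wilson interval of 6H control replicate 5, from 78.8% to 87.6%, reached into the range of the other samples, while that of 3H LPS replicate 5, from 77.3% to 84.2%, ended below the lowest of them, at 84.4%.

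At 27019461 only 1 of the 2 was outside the range of the others. The level was 72.8% in 3H LPS replicate 5 and 63.5% in 6H control replicate 5, with an interval from 57.5% to 69.1%, while the other 18 lay between 71.6% and 79.0%. At 27019544 both were the lowest samples, at 87.73% in 3H LPS replicate 5 and 84.9% in 6H control replicate 5, where the lowest of the others had 87.85%, inside both Wilson intervals, from 84.5% to 90.3% and from 80.1% to 88.7%. At 27019548, 3H LPS replicate 5 had 82.5%, with an interval from 78.8% to 85.6%, below the other 18 samples at 86.1% to 93.3%, and 6H control replicate 5 had 87.5%, within them. At the last CpG both were inside the range of the others, at 94.9% and 94.7%, against 94.3% to 96.3%. Among all 20 samples, 3H LPS replicate 5 was the highest or lowest at 2 of the 7 CpGs and 6H control replicate 5 at 4. Over 125 CpGs outside the window these shares were 11.2% and 10.4%. Both libraries were singled out after these values were seen, so the counts are a description and no test.

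Over the whole window the higher level at 27019282 and the lower levels elsewhere partly cancelled. The unweighted mean of all 7 CpGs was 73.4% in 3H LPS replicate 5 and 72.2% in 6H control replicate 5, and from 73.0% to 75.6% in the other 18 samples. Without 27019282, the mean of the other 6 was 82.7% and 81.1%, against 85.0% to 88.1%. The summed percent at 27019279 and 27019282 was 95.3 and 91.0 in these libraries, against 81.4 to 87.6 in the others. By group, the mean of all 7 was 74.6% ± 0.804 in 3H LPS and 75.1% ± 0.542 in 3H control samples, and 74.3% ± 0.791 in 6H LPS and 74.0% ± 1.19 in 6H control samples, with no test made of this summary.

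The 2 libraries that stood apart, 3H LPS replicate 5 and 6H control replicate 5, were also the shallowest at this region. The next shallowest library, 3H control replicate 4 with 1227 reads per CpG, had 0.487% at 27019282 and 88.1% over the other 6 CpGs, inside the range of the deeper libraries. Neither library was the shallowest of 20 in any of the other 7 regions. At its lowest ranks, the third from the shallowest, 3H LPS replicate 5 had 2836 reads per CpG on chromosome 10, against a median of 5150 over samples, and 33 against 303.5 in 1 of the chromosome 5 regions. It was the deepest on chromosome 23, with 43016 against 11799.5. The depth of 6H control replicate 5 ranged from 11702 reads on chromosome 23 to 27409 on chromosome 10, leaving out that chromosome 5 region, where it had 478. Of 125 CpGs outside the window covered in every sample, 3H LPS replicate 5 was the highest or lowest sample at 11.2% and 6H control replicate 5 at 10.4%, within the 4.80% to 15.2% seen over all 20 libraries. Their tables listed 287 and 283 positions, against 190 to 242 in the others. The part of depth in the values of these 2 libraries was not tested.

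**Figure D2:**
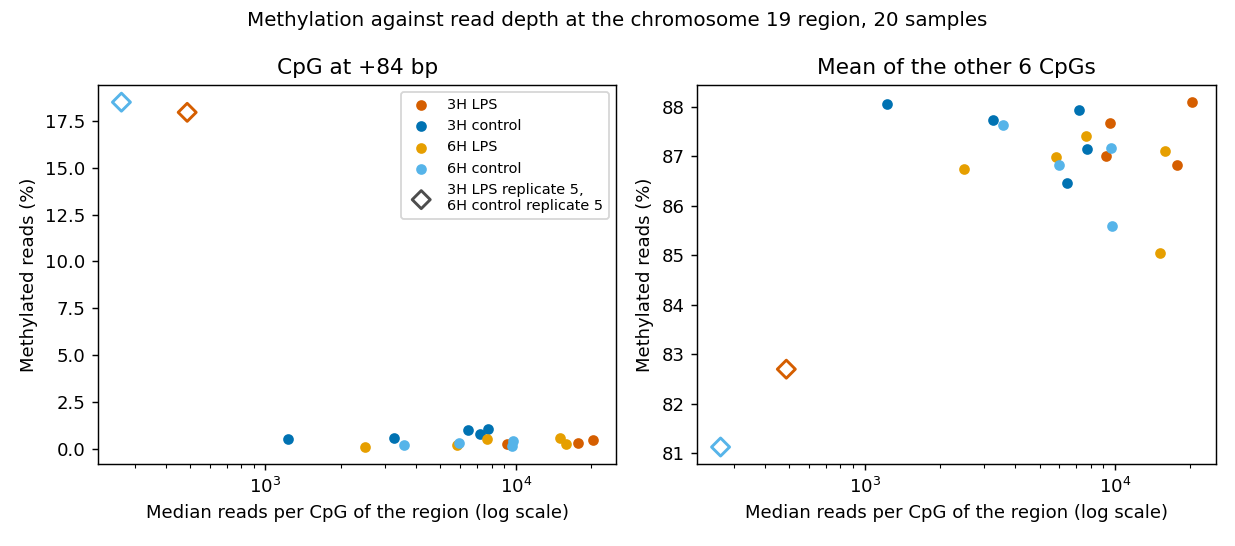
Percent of methylated reads (vertical axes) against the median reads per CpG of the region on a log scale (horizontal axes), for the CpG at 84 bp (left) and the mean of the other 6 CpGs (right). Points are samples, coloured by group, and diamonds mark 3H LPS replicate 5 (487 reads) and 6H control replicate 5 (266 reads), which are the shallowest and lie apart in both panels, while the sample with 1227 reads lies with the rest.

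LPS and control samples of the 3H set were set against each other to ask whether adult gonads differ after larval exposure. None of the 7 CpGs was called, and the share called over the 135 CpGs was 0%. At 27019282, the means were 3.82% ± 7.91 in LPS and 0.774% ± 0.255 in control samples, and the LPS mean was 0.285% ± 0.115 (n = 4) without replicate 5. At 27019548, the percent was 89.1, 89.7, 88.0, 91.0 and 82.5% in LPS samples 1 to 5, against 91.1, 89.5, 88.9, 93.3 and 89.7% in controls. The means were 88.0% ± 3.29 in LPS and 90.5% ± 1.76 in control samples, and the groups overlapped. Without replicate 5 the LPS mean was 89.4% ± 1.28 (n = 4), and the difference of LPS from control samples was -1.08 percentage points, against -2.46 with it. This CpG ranked first among the 7 in edgeR's quasi-likelihood test on methylated and unmethylated read counts (adjusted p = 0.672 over 135 CpGs, two-sided exact permutation p = 0.190). None of the 7 had an unadjusted p under 0.05 by edgeR, by limma or by the exact permutation test.

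The other methylated CpGs differed little between the 3H groups. The first CpG had 86.4% ± 3.19 in LPS and 87.6% ± 1.66 in control samples, and 87.7% ± 1.22 (n = 4) in LPS samples without replicate 5. At 27019279 the means were 84.1% ± 3.90 in LPS and 85.7% ± 0.870 in control samples, and 85.8% ± 0.935 (n = 4) in LPS samples without replicate 5. Both LPS means were thus slightly below the controls with that library and slightly above them without it. At 27019461 the means were 75.8% ± 2.02 in LPS and 75.9% ± 2.57 in control samples, and 76.6% ± 1.27 (n = 4) in LPS samples without replicate 5, which turned the direction here too. At 27019544 they were 89.2% ± 1.59 in LPS and 89.9% ± 1.03 in control samples, and at the last CpG 95.1% ± 0.343 in LPS and 95.2% ± 0.595 in control samples. Each of these 5 differences was smaller than the larger of the SDs of its groups.

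In the 6H set, too, none of the 7 CpGs was called, where 0.741% of the 135 CpGs were. The lowest p came from the first CpG, with 86.7% ± 0.692 in LPS and 85.3% ± 1.35 in control samples (two-sided exact permutation p = 0.0714, edgeR adjusted p = 0.977). It was lower in 3 of 5 controls than in any LPS sample. At 27019279 the means were 83.9% ± 1.37 in LPS and 81.9% ± 5.62 in control samples, and 84.3% ± 2.24 (n = 4) in controls without replicate 5. At 27019461 they were 75.0% ± 2.10 in LPS and 73.1% ± 5.85 in control samples, and 75.6% ± 2.63 (n = 4) in controls without replicate 5. Leaving out that control turned the direction at both, and at the 3 CpGs given next. At 27019544 the LPS samples had 89.3% ± 1.22 and the controls 89.0% ± 2.52. At 27019548 the LPS samples had 89.4% ± 1.995 and the controls 89.2% ± 1.48. The last CpG had 95.5% ± 0.715 in LPS and 95.4% ± 0.599 in control samples. At these last 3 CpGs the groups overlapped and differed by less than the SD of either group. No CpG of the 7 had an unadjusted p under 0.05 in this set by edgeR, limma or the exact test.

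Over both sets together, LPS and control samples likewise gave no call among the 7, against 0.741% of the 135 CpGs. Here 0 of the 7 passed 0.05 without adjustment by edgeR, limma or the exact permutation test. The sets were also compared with each other. Between 6H and 3H controls no CpG of the 7 or of the 135 was called (share called 0%). The smallest p was at the first CpG, with 85.3% ± 1.35 in 6H controls against 87.6% ± 1.66 in 3H controls (edgeR adjusted p = 0.681, two-sided exact permutation p = 0.0556). At 27019279, 6H controls had 81.9% ± 5.62 and 3H controls 85.7% ± 0.870, and the 6H mean was 84.3% ± 2.24 (n = 4) without replicate 5. Between 6H and 3H LPS samples none was called either (share called 0%), with a lowest edgeR adjusted p of 0.987. Whether the difference of LPS from control samples itself differed between the sets was tested as an interaction. It passed at none of the 7 (lowest edgeR adjusted p = 0.794), where it passed at 0.741% of the 135 CpGs. In these last 3 comparisons 0 of the 7 had an unadjusted p under 0.05 by edgeR, limma or the permutation test. For the interaction this test permuted set labels within treatment after set means were subtracted, so it is approximate there.

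With both shallow libraries left out, the values at 27019282 were all near 0%. The 4 remaining 3H LPS samples lay between 0.177% and 0.442%, and the 5 3H controls between 0.487% and 1.07%. With 3H LPS replicate 5, at 18.0%, these groups overlapped. The means were 0.285% ± 0.115 (n = 4) in 3H LPS and 0.774% ± 0.255 in 3H control samples. The 4 remaining 6H controls lay between 0.113% and 0.388%. With 6H control replicate 5, at 18.5%, the 6H controls overlapped the 3H controls. In the 6H set the means were 0.322% ± 0.209 in LPS samples and 0.250% ± 0.120 (n = 4) in controls, and the groups overlapped. With so few samples some groups separate by chance. The share of all tested CpGs whose groups separate once both libraries are left out was not counted. The separate ranges are therefore no finding about this CpG.

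None of these group differences was called in the edgeR fit of the 18 samples. The share called over the 135 CpGs was 0% for 3H LPS against 3H controls and for the interaction. It was 0.741% for 6H against 3H controls. The fitted log2 odds at 27019282 fell by 1.50 in 3H LPS against 3H control samples (edgeR adjusted p = 0.144). They fell by 1.72 in 6H against 3H controls (edgeR adjusted p = 0.150). The interaction had an edgeR adjusted p of 0.212. In each of these 3 comparisons 27019282 was the 1 CpG of the 7 with an unadjusted edgeR p under 0.05. With all 20 samples its unadjusted edgeR p were 0.578, 0.531 and 0.929. The libraries left out were chosen after their values at this CpG were seen, and all 3 comparisons include the 3H controls. The p-values of the 18 samples are therefore no independent support for a group difference. In the fit of all 20 samples, the log2 odds of 3H LPS against 3H control samples fell by 0.70 (adjusted p = 0.886), although the mean percent of the LPS group was the higher one. The odds and the mean percent are on different scales and weigh the 1 high sample differently.

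CpGs near 0% in other regions were set beside these values. Over 64 CpGs in 3 nearly unmethylated regions on chromosomes 3, 5 and 23, the mean level was 0.446% ± 0.0471 in 3H LPS and 0.607% ± 0.0886 in 3H control samples. In the 6H set it was 0.583% ± 0.0319 in LPS and 0.493% ± 0.0587 in control samples. The 3H controls had the highest mean there over all samples, and also at 27019282 without the shallow libraries. The 6H LPS samples had the next highest mean in both. At 27019282 that mean, 0.322% ± 0.209, was close to 0.285% ± 0.115 (n = 4) in 3H LPS and 0.250% ± 0.120 (n = 4) in 6H control samples. The order below the 3H controls is therefore unclear there, and a shared order was not tested. The lowest mean was that of 3H LPS samples over the 64 CpGs and that of 6H controls at 27019282 without those libraries. With those libraries, the highest means at 27019282 were 3.90% in 6H controls and 3.82% in 3H LPS samples. In 3H LPS replicate 5 and 6H control replicate 5 these 64 CpGs averaged 0.460% and 0.539%, within the range of the other samples of their groups. The part of incomplete conversion in the levels near 0% was not tested.

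**Figure D3:**
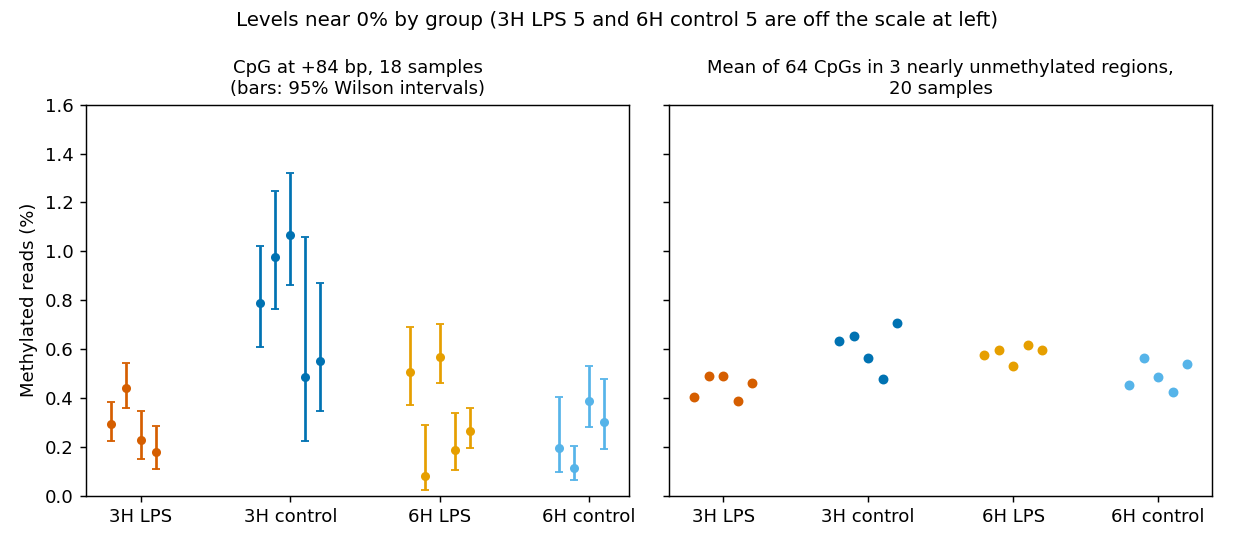
Percent of methylated reads (vertical axis) by group, for the CpG at 84 bp in 18 samples with 95% Wilson intervals (left) and for the mean of 64 CpGs of 3 nearly unmethylated regions in 20 samples (right). Each point is 1 sample, and 3H LPS replicate 5 and 6H control replicate 5 are off the scale at left and not drawn there. The 4 drawn 3H LPS samples at left lie between 0.177% and 0.442%, and the 3H controls between 0.487% and 1.07%. With the 3H LPS sample that is not drawn, these groups overlap.

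To see which CpGs varied together, the deviations of each sample from its group mean were correlated for all 21 pairs of the 7 CpGs. In each correlation a point is 1 sample, and its 2 values come from the same library at nearly the same read depth. Whether both CpGs were read on the same molecules was not tested. The part of shared counting error in r was not tested either. The permutation p-values were adjusted over the 1183 pairs of CpGs of the same region in the series. Over all 20 samples, Pearson's r was called for 4 of the 21 pairs, against 11.1% of the 1183, and Spearman's rho for 5, against 10.7%. Of the 4 pairs, 2 joined 27019282 with 27019544 and with 27019548. No correlation over 20 samples is given for 27019282, because its values lie on 2 separate levels, but its r with every other CpG was negative. The other 2 pairs called by r were 27019279 with 27019548 and 27019544 with 27019548. The pair called by rho only was 27019279 with 27019282. All 15 pairs among the 6 methylated CpGs had a positive r over 20 samples, from 0.18 to 0.76 with a median of 0.53. The median over the 1183 pairs was 0.15, but these include pairs of nearly unmethylated CpGs, so the medians are not of like sets.

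Most of this was not seen in the other 18 samples. There the median r of the 15 pairs was 0.13 and 12 of them were positive. Pearson's r was called for none of the 21 pairs, against 10.9% of the 1183, and Spearman's rho for 1, against 11.2%. The pair 27019279 and 27019461 had the highest r over 20 samples, 0.76 (permutation p = 0.0101, adjusted p = 0.0726) with rho = 0.45, and r = 0.22 over 18. For the first CpG and 27019279, r was 0.53 over 20 and -0.30 over 18 samples, neither of which was called. The CpGs 3 bp apart, 27019279 and 27019282, had r = -0.19 (permutation p = 0.418, adjusted p = 0.716) and rho = -0.16 over 18 samples.

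For the pair 4 bp apart, 27019544 and 27019548, r was about as high over 18 as over 20 samples. At 27019544 the percent methylated was 88.8, 91.3, 87.9, 90.5 and 87.7% in 3H LPS samples 1 to 5, against 90.4, 88.2, 90.3, 90.9 and 89.5% in 3H controls. It was 89.7, 91.3, 88.4, 88.6 and 88.5% in 6H LPS samples, against 90.3, 91.0, 88.2, 90.6 and 84.9% in 6H controls. At 27019548, whose 3H values are given above, it was 91.1, 90.7, 86.1, 89.7 and 89.4% in 6H LPS samples, against 89.8, 91.3, 88.3, 89.1 and 87.5% in 6H controls. In 16 of 20 samples both CpGs deviated to the same side of the group mean. Pearson's r was 0.63 (permutation p = 0.00196, adjusted p = 0.0257) and Spearman's rho was 0.75 (permutation p = 0.000740, adjusted p = 0.0159).

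The call of this pair was lost when certain libraries were left out. Without both shallow libraries, which were also the 2 samples farthest from the median of 27019544, r was 0.65 (permutation p = 0.00763, adjusted p = 0.0610) and rho was 0.72 (permutation adjusted p = 0.0349). The Pearson call was also lost without 3H LPS replicate 4, at r = 0.61 and a permutation adjusted p of 0.0629. Without 6H control replicate 5 it was lost at r = 0.67 and a permutation adjusted p of 0.0559. Across all samples left out in turn, r stayed between 0.60 and 0.67.

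The last of the 4 called pairs, 27019279 and 27019548, had r = 0.64 (permutation p = 0.00305, adjusted p = 0.0347) and rho = 0.62 (permutation p = 0.00289, adjusted p = 0.0355) over 20 samples. Over the 18 samples, which again left out the 2 farthest from the median, of 27019279, r was 0.40 (permutation p = 0.119, adjusted p = 0.357) and rho 0.40. Leaving out 3H LPS replicate 5 alone gave r = 0.44 (permutation adjusted p = 0.170). The call was also lost, at r from 0.64 to 0.74, without 3H control replicate 4, 6H LPS replicate 1, 6H control replicate 3 or 6H control replicate 5.

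The nearly unmethylated CpG had its strongest relation over the 18 samples with 27019548, at r = -0.60 (permutation p = 0.0255, adjusted p = 0.130) and rho = -0.54 (permutation adjusted p = 0.203), which did not pass. The last CpG had its highest r with 27019461, 0.54 over 20 samples (permutation p = 0.0166, adjusted p = 0.0989, rho = 0.55) and 0.47 over 18, and did not pass either.

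**Figure D4:**
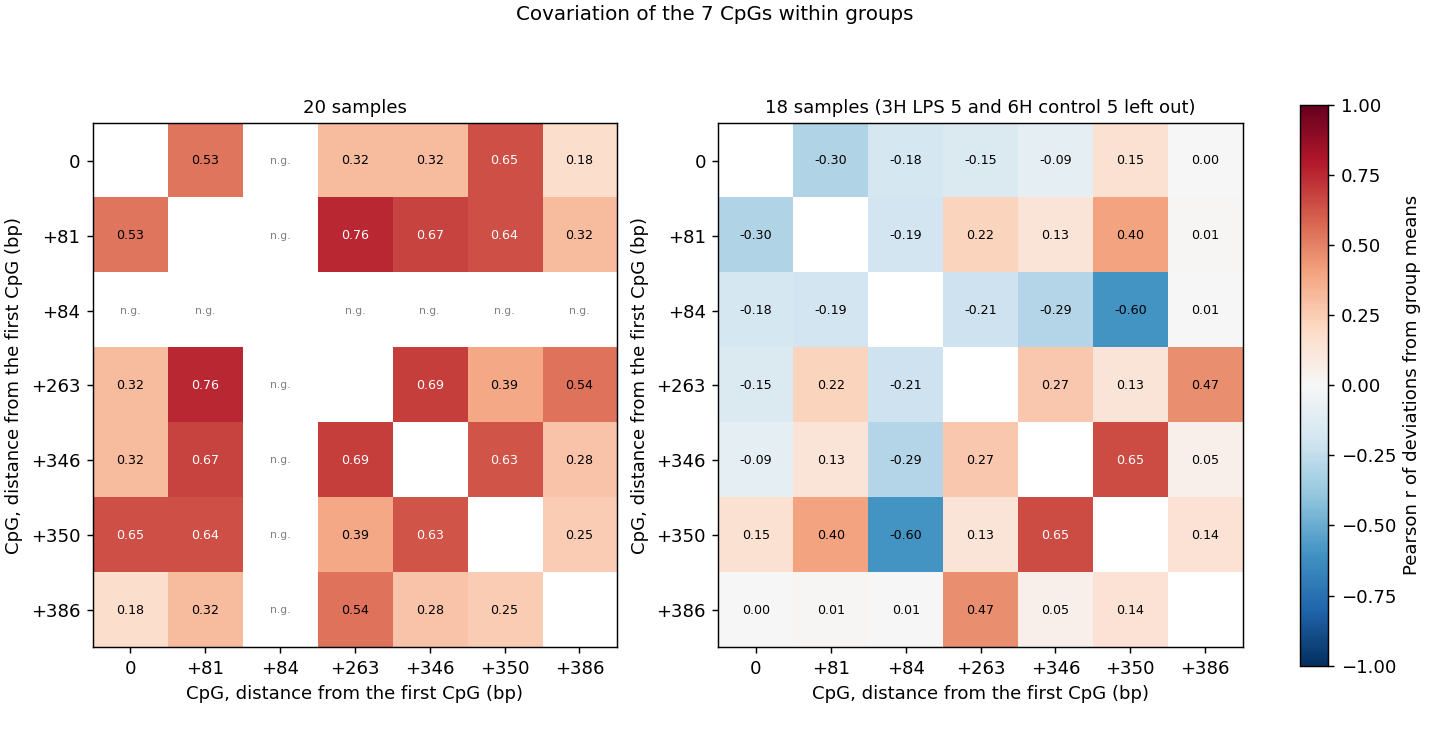
Pearson's r of the deviations from group means for each pair of the 7 CpGs, labelled by distance in bp from the first CpG, over 20 samples (left) and over 18 samples without 3H LPS replicate 5 and 6H control replicate 5 (right). The letters n.g. mark pairs with no r given because 1 CpG had values on 2 levels. All values given at left are positive, while those not given, of the CpG at 84 bp, were all negative. At right the highest r is 0.65, between the CpGs at 346 and 350 bp.

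**Figure D5:**
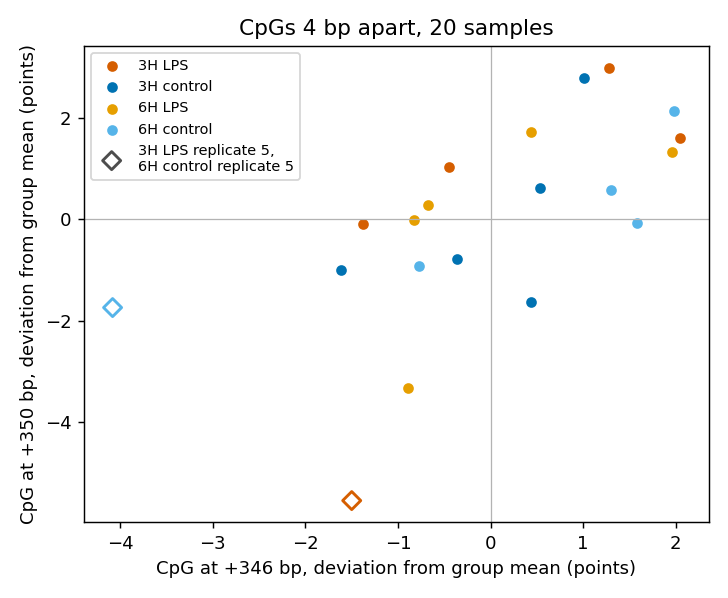
Deviation of each sample from its group mean, in percentage points, at the CpG at 346 bp (horizontal axis) and the CpG at 350 bp (vertical axis), for 20 samples coloured by group. Diamonds mark 3H LPS replicate 5 and 6H control replicate 5. In 16 of 20 samples both deviations have the same sign, and r is 0.63.

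The spread between samples of a group differed among the 7 CpGs. It is set here against binomial counting error of the reads, which is a lower limit, since PCR copies are not independent and samples may differ, so a ratio above 1 is no finding. Over the 18 deeper samples, the SD within groups was 0.192 percentage points at 27019282 and 0.580 at the last CpG, the sites nearest the ends of the scale. It was largest at 27019461, with 2.23. The SD that counting of reads alone would give was 0.0972, 0.287 and 0.585 percentage points at these 3, so the observed SD was 1.98, 2.02 and 3.82 times as large. At the other 4 CpGs the ratio lay between 2.69 and 4.001, and was highest at 27019548. The median SD of the 7 CpGs was 1.26 percentage points, within the medians of the other 7 regions, from 0.204 to 4.31.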

How the data were processed

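Per the submitters' processing notes, the authors' tools included Bismark, Bowtie2, FastQC 0.11.6 and Trim Galore 0.4.5, and the build was GRCz11. Settings were not found in the sources used here. Per the file headers, each of the 20 deposited tables gives, for each CpG, the counts of methylated and unmethylated reads and the percent methylated. The deposited percent equalled the one recomputed from the counts. The tables hold no molecular identifiers.

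A CpG entered with at least 10 reads in at least 4 of 5 samples of every group, and a sample under 10 reads was left out there. Neighbouring CpGs up to 500 bp apart, at least 3 of them, formed a region. Methylated and unmethylated counts of the 135 CpGs were fitted in all 20 samples with edgeR 4.0.16 (R 4.3.3), with 1 intercept per sample, its quasi-likelihood test and Benjamini-Hochberg adjustment over the 135 CpGs (threshold 0.05). limma 3.58.1 on log2 ratios of the counts (offset 0.5) and an exact permutation test per CpG were alternatives. For the interaction the permutation test was approximate, since set means were subtracted first. Correlations used deviations from group means and 100000 permutations within groups (Python 3.11.15, numpy 2.4.6). The procedures were tried on simulated data without outlying samples and with no change at nearly unmethylated CpGs, so these cases were not covered. Library depth at the 7 CpGs, 266 to 20307 reads per CpG, sets the Wilson intervals.

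All 7 CpGs, and every pair called by r, are named. Members, lists and tests were chosen with earlier results of these data known. Leaving out both shallow libraries was chosen after seeing the data. Other alternatives were coverage minimums, scale, centring, rank correlation, a replicate block and each sample left out in turn.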

Additional observations from a re-analysis of the deposited data

Results flagged for a closer look

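Within groups of 5, 4 of 32 sets of values held a sample that lay far from the others by Dixon's criterion, where chance gives about 1.6. All 4 came from the 2 libraries with the fewest reads in the window. The sets share libraries and are not independent, so the chance figure does not say how unusual the count is. At the first CpG, 3H LPS replicate 5 had 81.0%, against 86.6% to 89.0% in the other 3H LPS samples. At 27019279 it had 77.3%, against 84.6% to 86.8%. At 27019282 it had 18.0%, against 0.177% to 0.442%. At the same CpG, 6H control replicate 5 had 18.5%, against 0.113% to 0.388% in the other 6H controls. The 4 were not equally far out. The gap to the nearest sample, as a share of the range, was 0.710 at the first CpG and 0.763 at 27019279. It was 0.985 in both groups at 27019282. Their part in each result was measured by leaving them out. A cause for their values was not tested.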

How the results depend on the processing

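In 166 combinations of a comparison and another setting, 0 of the 7 CpGs were called, the lowest adjusted p being 0.144, for 27019282 without both shallow libraries. The count of called pairs, 4 in the reported setting, was 9 without centring on group means, 0 without both shallow libraries (1 with Spearman's rho there), 0 without the 2 samples farthest from the median, and between 1 and 5 when 1 sample was left out in turn. It was 1 without 3H LPS replicate 5 or 6H control replicate 5, and 2 without 3H LPS replicate 4, 3H control replicate 4, 6H LPS replicate 1 or 6H control replicate 3. It was 5 with Spearman's rho, 3 at a minimum of 30 or 100 reads in every sample, and 4 on the log2 ratio scale. At those minimums of reads, r of the 4 pairs was unchanged. The call of 27019282 with 27019544 was lost there because its permutation adjusted p rose from 0.0488 to 0.0568. The pairs of all regions that met the minimum were adjusted together. The cause of the other shifts was not tested.

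The direction of single differences was not stable. Of 28 differences in mean percent between 2 groups, 20 turned without some 1 sample and 16 without both shallow libraries. With 1 sample left out in turn, the group difference of the region mean lay between -0.657 and -0.127 percentage points for LPS against control in the 3H set, and between -0.115 and 0.674 in the 6H set. It lay between -1.38 and -0.642 for 6H against 3H controls, and between -0.630 and 0.00822 for 6H against 3H LPS samples.

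LPS and control samples of a set carry the same numbers, written after the letter L in the sample titles and called replicates here. The labels do not say what these numbers share. Whether they pair the samples was not decided, since samples with different numbers were not correlated for comparison. Over 132 CpGs, deviations of LPS and control samples with the same number correlated at r from -0.202 to 0.238, over 0.1 in 4 of 10 pairs, and those of 6H and 3H samples at r from -0.289 to 0.147, over 0.1 in 1 of 10. With the replicate block, on differences within the 10 pairs, 0 pairs of CpGs were called, and r of 27019544 with 27019548 was 0.41 (permutation adjusted p = 0.568).

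Depth limits the values of 3H LPS replicate 5 and 6H control replicate 5, with 487 and 266 reads per CpG.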
